A study of Arabidopsis thaliana with 14 samples.

Results

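Dark-grown wild-type seedlings of Arabidopsis thaliana were compared with and without diphenylene iodonium (DPI), across all 23523 genes of the Col-0 DPI against Col-0 mock table. The series had 14 RNA-Seq samples in 5 groups, and 6 of them entered this comparison: 3 samples of Col-0 mock and 3 of Col-0 DPI, labelled biological replicates. Both groups were the Columbia ecotype with no introduced allele, grown for 6 days in the dark, and both received 2 µM propiconazole (PPZ), so the mock seedlings were not untreated seedlings. The Col-0 DPI group received 1 µM DPI in addition. The labels gave the tissue as hypocotyl and the stage as seedling, and did not say whether a replicate pooled several plants. The mutant groups used for comparison were 3 samples of bzr1-1D mock, 3 of bzr1-1D DPI and 2 of bzr1-1D DPI with 0.3 mM H2O2, all on 2 µM PPZ. The bzr1-1D allele is dominant and stabilises BZR1, the brassinosteroid-activated transcription factor.

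PPZ blocks a cytochrome P450 step of brassinosteroid (BR) synthesis, so seedlings on it are short of the hormone. DPI binds the flavin of flavoproteins. It is used to inhibit the NADPH oxidases (RBOH proteins), which make the superoxide that is converted into H2O2 outside the cell, and it also acts on other flavoproteins, among them NADPH dehydrogenases of the mitochondrion. In dark-grown seedlings, genes of the photosynthetic apparatus are held low by the phytochrome-interacting factors (PIFs), and BZR1 acts beside them. The comparison asked which transcripts depended on the DPI-sensitive activities when BR was already low.

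The table gave 1 value per gene and group, the authors' mean over the libraries, and no value per sample. No replicate spread, standard error or p-value could be computed from these means, the authors' own probability column was not used, no test was run, and whether the groups overlapped sample by sample was not known. The header did not name the unit, which was taken as FPKM, fragments scaled to transcript length and library size, from the values, and the sequencing depth was unknown. Differences are given as log2 ratios of DPI over mock after 1 FPKM was added to each mean, which shrinks the ratio of weakly expressed genes. A gene was counted as higher or lower where this log2 ratio was at least 1 or at most -1, that is 2-fold.

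Of the 23523 genes, 205 were at least 2-fold higher under DPI (0.871%) and 687 were at least 2-fold lower (2.92%). The median log2 ratio over all genes was -0.17, and it was -0.24 over the 17684 genes that averaged 1 FPKM or more. When the log2 ratios were centred on that last median, 379 genes were higher and 342 lower, so the split between higher and lower genes depended on that scaling. The summed FPKM was 698190 in mock and 730988 under DPI. The light-harvesting antenna genes took 3.83% of the sum in mock and 9.28% under DPI. Each list below is set against the median of -0.17. In the plot of group means, 19 of the 21 antenna genes and 21 of the 29 mitochondrial stress genes lay above the diagonal.

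**Figure D1:**
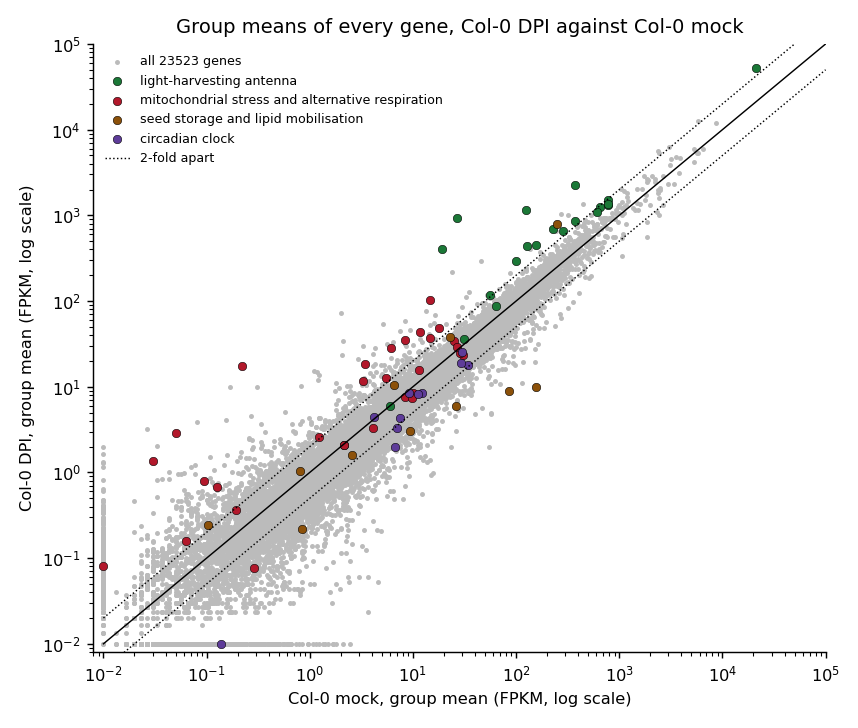
Mean FPKM of each gene in Col-0 DPI (vertical axis, log scale) against Col-0 mock (horizontal axis, log scale), with 4 gene lists coloured and dotted lines at 2-fold. Points are the authors' group means with no error available. The antenna gene LHCB1.3 is the point furthest to the upper right, at 21154 FPKM in mock and 52915 FPKM under DPI.

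Photosynthesis genes formed the most abundant group on the higher side. Of the 21 light-harvesting antenna genes, which encode the chlorophyll a/b-binding proteins around the photosystems, 12 were at least 2-fold higher and none was lower, with a median log2 ratio of 1.2. LHCB1.4 (AT2G34430), 1 of 5 genes for the main antenna protein of photosystem II, had a mean of 26.5 FPKM in mock and 921 FPKM under DPI. Its log2 ratio of 5.07 was the largest among genes averaging 10 FPKM or more. LHCB1.1 went from 19.3 to 407 FPKM (log2 ratio 4.33) and LHCB1.2 from 125 to 1167 FPKM (3.21). LHCB1.3, already the most abundant transcript of the mock seedlings, went from 21154 to 52915 FPKM (1.32) and made up 3.03% of the summed FPKM in mock and 7.24% under DPI. LHCB1.5 was at 374 FPKM in mock and 2264 FPKM under DPI (2.59).

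The 5 LHCB1 genes are close copies. In the RefSeq genome the coding sequences of LHCB1.1 and LHCB1.3 were 96.1% identical, and those of LHCB1.2 and LHCB1.3 96.4%, so reads could be divided among them by the counting and the values of LHCB1.1 and LHCB1.2 are uncertain. LHCB1.4 was 86.8% identical to LHCB1.3 and 91.5% to LHCB1.5. Summed over the 5 genes, which depends less on that division, the level was 21699 FPKM in mock and 57674 FPKM under DPI, a log2 ratio of 1.41. LHCB1.3 and LHCB1.5 also overlap annotated genes on the opposite strand, as do EARLI1, ASN1, CHS and BCAT4 below, and whether the counting used strand is not given in the sources used here.

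Outside LHCB1 the log2 ratios of the antenna genes were at most 1.79, below those of every LHCB1 gene except LHCB1.3. LHCB2.2, a second type of photosystem II antenna, was at 127 FPKM in mock and 442 FPKM under DPI (log2 ratio 1.79), and LHCB3 at 230.3 and 689 FPKM (1.58). LHCA1, of the photosystem I antenna, was at 99.3 and 292 FPKM (1.55). LHCB4.3 and LHCB7, the rarest antenna members in mock, had log2 ratios of -0.02 and -0.03, and LHCA5 had 0.21. The antenna plot shows this order, with 4 of the 5 LHCB1 genes at the top and LHCB4.3 and LHCB7 at the bottom.

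**Figure D2:**
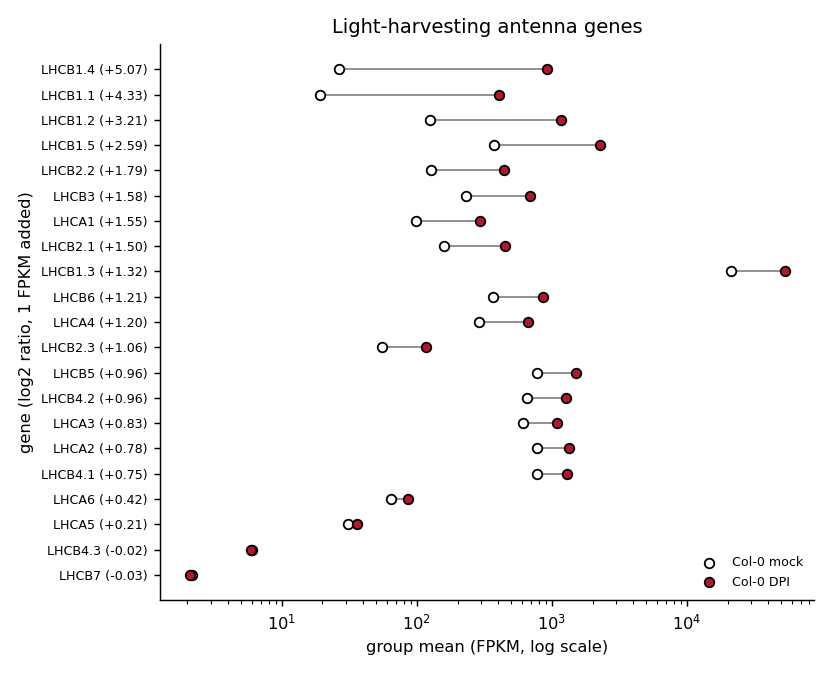
Mean FPKM (log scale) of the 21 antenna genes in Col-0 mock (open circles) and Col-0 DPI (filled circles), ordered by log2 ratio, which is printed beside each name. The largest log2 ratio is 5.07 (LHCB1.4) and 12 genes reach 1; the circles are group means with no error bars available.

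Photosystem genes had smaller and more even ratios. Of 32 genes for nuclear-encoded photosystem and electron transport subunits, 30 had a log2 ratio above 0 and the median was 0.67, but only PSAG was past 2-fold (3003 FPKM in mock, 6277 FPKM under DPI). With centring on the median gene 14 of the 32 were past 2-fold. PSAG, a photosystem I subunit, shares its locus with AT1G55673 on the opposite strand, which was listed at 5785 and 12640 FPKM, and the reads of the pair may not be separable. Rubisco small subunit genes were graded in the same way: RBCS1B was at 318 FPKM in mock and 1015 FPKM under DPI (log2 ratio 1.67), RBCS3B at 2412 and 5318 FPKM (1.14), and RBCS1A, the most abundant, at 8658 and 12014 FPKM (0.47). These small subunit genes are also close copies. Of the 17 Rubisco and Calvin cycle genes, 2 were past the fold and the median was 0.47.

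Chlorophyll synthesis genes stayed within the fold. None of 25 was past it, and the median log2 ratio was 0.13. GUN4, an activator of the magnesium chelatase, had the largest value (143 FPKM in mock, 246 FPKM under DPI, 0.78). PORA and PORB, the light-dependent reductases of protochlorophyllide that dominate in etiolated seedlings, had log2 ratios of -0.08 and 0.46. None of the 88 measured plastid-encoded genes was past 2-fold, with a median of 0.09. With centring, 1 gene of each of these lists was past the fold.

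The regulators of greening were mostly below 0. Of 20 light signalling genes, 2 were higher, 1 was lower and the median was -0.43 (-0.20 after centring). Of the 20, 13 were below the median of all genes. The higher ones were ELIP1 (3.31 FPKM in mock, 29.8 FPKM under DPI, log2 ratio 2.84) and ELIP2 (16.1 and 55.9 FPKM, 1.73), whose early light-induced proteins bind pigments under light stress. HFR1, a bHLH protein that restrains PIFs, was the lower one, at 53.9 FPKM in mock and 12.6 FPKM under DPI (-2.01). GLK1 and GLK2, activators of antenna genes, had log2 ratios of 0.31 and 0.06. PIF3 was at -0.02, PIF4 at -0.78 and PIF5 at -0.47. Of 11 circadian clock genes, 10 had a log2 ratio below 0 and 8 were below the median of all genes. Their median was -0.49 (-0.25 after centring). Only PRR7, a repressor of the morning genes, was past the fold (6.66 FPKM in mock, 1.99 FPKM under DPI).

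Genes of mitochondrial stress also held many higher members. In plants, a disturbed electron transport chain is answered in the nucleus by NAC factors such as ANAC013 and ANAC017, which bind the mitochondrial dysfunction motif and raise alternative oxidase and its companions. Of the 29 list members, 12 were at least 2-fold higher and none was lower, with a median log2 ratio of 0.58. AT12CYS (AT5G09570), a small cysteine-rich protein of the mitochondrion, was at 0.220 FPKM in mock and 17.56 FPKM under DPI (log2 ratio 3.93). SOT12, a sulphotransferase, was at 14.5 and 103 FPKM (2.74). HSP23.5, a small heat shock protein of the mitochondrion, was at 3.44 and 18.6 FPKM (2.14). AOX1A, the main alternative oxidase, which passes electrons from ubiquinol straight to oxygen, was at 17.9 FPKM in mock and 48.5 FPKM under DPI (1.38).

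The alternative NAD(P)H dehydrogenases, flavoproteins that feed the same ubiquinone pool, were uneven. NDB4 was at 0.0500 FPKM in mock and 2.85 FPKM under DPI (log2 ratio 1.87) and NDA1 at 0.0933 and 0.787 FPKM (0.71), while the more abundant NDB2 was at 11.5 and 15.8 FPKM (0.43) and NDB1 at 10.1 and 8.42 FPKM (-0.24). Among the regulators, ANAC013 was past the fold (5.53 FPKM in mock, 12.5 FPKM under DPI, 1.05) and ANAC017, an anchored factor that is released by proteolysis, was not (30.6 and 23.3 FPKM, -0.38). Detoxification members past the fold included 3 enzymes: UGT74E2, a glucosyltransferase of indole-3-butyric acid, was at 6.13 and 28.5 FPKM (2.05), GSTU25, a glutathione S-transferase, at 8.41 and 35.4 FPKM (1.95), and CYP81D8, a cytochrome P450, at 3.27 and 11.6 FPKM (1.56). Counts over the whole detoxification families stand beside 0.871% higher and 2.92% lower of all genes. Of 45 glutathione S-transferases 2 were higher and 1 lower, with a median of -0.21 that became 0.03 after centring, and of 55 UDP-glycosyltransferases 1 was higher and 2 lower, with a median of -0.16 that became 0.08.

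**Figure D3:**
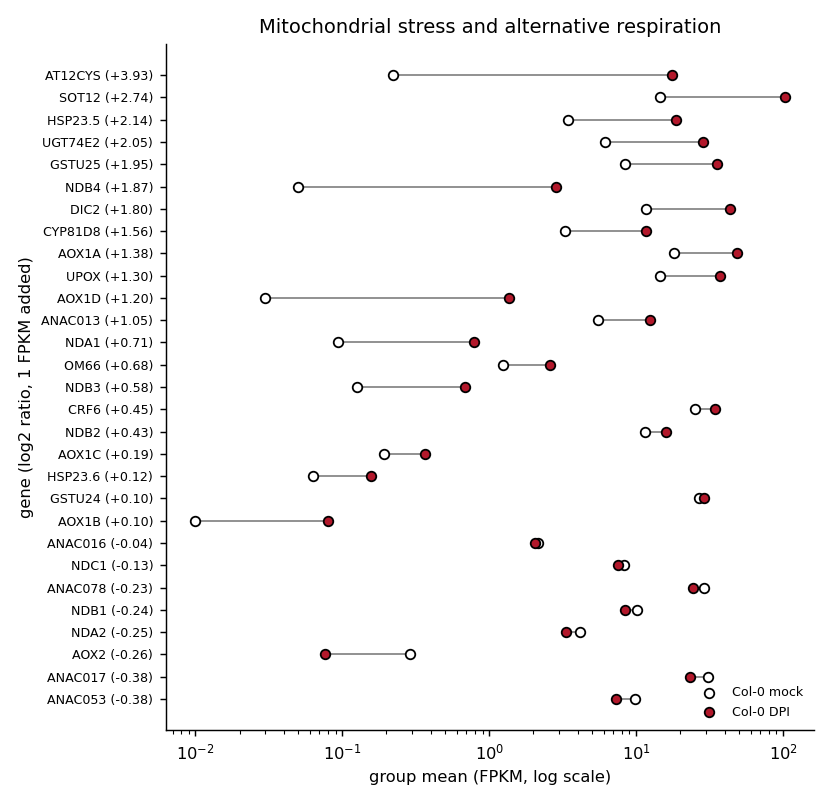
Mean FPKM (log scale) of the 29 mitochondrial stress genes in Col-0 mock (open circles) and Col-0 DPI (filled circles), ordered by log2 ratio. AT12CYS has the largest log2 ratio, 3.93, and 12 genes reach 1; the circles are group means with no error bars available.

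The mitochondrion-encoded transcripts were also above the median gene. Of 112 measured, 12 were at least 2-fold higher and none lower, and the median log2 ratio was 0.32. The largest were open reading frames of unknown role, ORF149 (11.8 FPKM in mock, 35.6 FPKM under DPI) and ORF107A (30.2 and 85.0 FPKM), with MATR, the intron maturase, at 6.09 and 15.5 FPKM (1.22). Both groups were under 1 FPKM for 56 of the 112, and such transcripts are captured poorly where libraries select messenger RNA.

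The motif that gives this response its name was looked for in the 250 bases before the annotated start of each gene. It was searched on both strands as CTTG followed, after any 5 bases, by CAAG or CACG. It occurred in 252 of 23321 promoters (1.08%), in 15 of the 193 promoters of genes at least 2-fold higher under DPI (7.77%) and in 4 of the 687 of genes at least 2-fold lower (0.582%). Read the other way, 5.95% of the genes with the motif were at least 2-fold higher and 0.772% of those without it. Of the 15 carriers, 3 belonged to the mitochondrial list (HSP23.5, CYP81D8 and UPOX) and 12 did not. Within that list the motif was in 9 of 29 promoters (31.0%), in 3 of the 12 members past the fold and in 6 of the 17 that were not. The list was made of genes known for this response, so its share is not independent of the motif. The carrier with the largest ratio was AT2G04050, a MATE efflux protein, which was at 2.09 FPKM in mock and 34.0 FPKM under DPI (log2 ratio 3.5) and held 2 matches. The 4 promoters below, read from RefSeq genome TAIR10.1, are shown because they carry the motif in genes past the fold; each line runs from 250 bases before the start of the gene to the base before it, 5′ to 3′ on the strand of the gene, with the match in capitals. They lie on chr2:1339469-1339718 (minus strand) for AT2G04050, chr5:20890913-20891162 (plus) for HSP23.5, chr4:17571744-17571993 (minus) for CYP81D8 and chr2:9254128-9254377 (plus) for UPOX.
AT2G04050: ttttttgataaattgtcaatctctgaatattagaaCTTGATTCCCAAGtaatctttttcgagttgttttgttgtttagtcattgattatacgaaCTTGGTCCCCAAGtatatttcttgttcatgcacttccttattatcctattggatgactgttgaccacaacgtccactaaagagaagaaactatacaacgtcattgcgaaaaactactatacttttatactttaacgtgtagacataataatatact
HSP23.5: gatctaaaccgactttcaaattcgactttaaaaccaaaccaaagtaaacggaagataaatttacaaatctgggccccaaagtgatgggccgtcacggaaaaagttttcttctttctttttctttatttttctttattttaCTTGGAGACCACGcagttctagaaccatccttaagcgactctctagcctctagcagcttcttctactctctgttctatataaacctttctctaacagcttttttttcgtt
CYP81D8: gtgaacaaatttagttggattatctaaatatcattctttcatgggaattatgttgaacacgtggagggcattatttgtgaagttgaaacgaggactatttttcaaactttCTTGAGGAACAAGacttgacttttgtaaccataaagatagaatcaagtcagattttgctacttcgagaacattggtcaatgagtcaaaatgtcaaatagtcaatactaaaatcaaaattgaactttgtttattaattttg
UPOX: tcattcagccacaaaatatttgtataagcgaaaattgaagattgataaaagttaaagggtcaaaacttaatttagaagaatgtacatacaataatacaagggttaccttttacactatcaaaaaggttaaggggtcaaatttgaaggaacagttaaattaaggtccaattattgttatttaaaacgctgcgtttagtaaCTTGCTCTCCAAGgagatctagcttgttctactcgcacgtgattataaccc

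The matches began 215 and 156 bases before the start of AT2G04050, 110 before HSP23.5, 140 before CYP81D8 and 51 before UPOX. UPOX, a mitochondrial protein induced by oxidative stress, was at 14.5 FPKM in mock and 37.2 FPKM under DPI (log2 ratio 1.3). The other carriers past the fold included NAC044, a NAC factor (1.24 and 13.8 FPKM, 2.73), and AT5G54100, of the prohibitin-like SPFH family (6.16 and 21.7 FPKM, 1.66). AT1G55673, whose locus is shared with PSAG, was a carrier too. The largest member of the list, AT12CYS, and AOX1A had no match in this window, which says only that these letters were not in these 250 bases.

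The mitochondrial dysfunction motif was in none of the 21 antenna promoters. The G-box (CACGTG), the core that PIFs and BZR1-interacting bHLH factors bind, was in 5 of 21 (23.8%) beside 7.10% of all promoters, and the I-box (GATAAG) in 4 of 21 (19.0%) beside 12.4%. The brassinosteroid element (CGTGTG or CGTGCG), which BZR1 binds, was in 0 of 21 beside 6.98% of all promoters. Among all genes at least 2-fold higher under DPI it was in 29 of 193 promoters (15.03%), among those at least 2-fold lower in 58 of 687 (8.44%), and in the mitochondrial stress list in 5 of 29, of which 3 were among the 12 members past the fold. The as-1 core (TGACG) was in 6 of 21 (28.6%) beside 19.1%. LHCB1.4, the gene with the largest ratio, held 3 matches of that 5-letter core, and its promoter is shown for that reason (chr2:14524357-14524606, plus strand, TAIR10.1, matches on either strand in capitals). The as-1 core was in 5 of the 12 antenna promoters of genes past the fold and in 1 of the other 9, while in the mitochondrial stress list it was in 4 of the 12 past the fold and in 10 of the other 17. Over all genes at least 2-fold higher it was in 44 of 193 (22.8%).
LHCB1.4: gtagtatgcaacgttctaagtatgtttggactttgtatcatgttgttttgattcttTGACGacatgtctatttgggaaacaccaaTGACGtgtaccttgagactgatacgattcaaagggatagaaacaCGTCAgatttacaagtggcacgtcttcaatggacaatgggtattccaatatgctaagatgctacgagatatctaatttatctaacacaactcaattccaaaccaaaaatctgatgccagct

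The NADPH oxidase genes themselves, whose products DPI is used to inhibit, were weakly expressed and none was higher. Of the 9 measured, 2 were at least 2-fold lower, with a median log2 ratio of -0.19 that became 0.05 after centring. RBOHG was at 3.09 FPKM in mock and 0.517 FPKM under DPI (-1.43) and RBOHB at 3.14 and 0.820 FPKM (-1.19). RBOHD and RBOHF, the oxidases best known from defence and growth, were at 4.99 and 3.49 FPKM (-0.42) and at 3.59 and 1.79 FPKM (-0.72).

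Of 21 enzymes that remove superoxide and H2O2, 1 was higher and 1 lower. FSD1, a plastid-associated iron superoxide dismutase, was at 442 FPKM in mock and 1370.1 FPKM under DPI (log2 ratio 1.63). CSD2, the plastid copper/zinc superoxide dismutase, was at 265 FPKM in mock and 69.9 FPKM under DPI (-1.91), and its cytosolic relative CSD1 was at 164 and 86.8 FPKM (-0.91). CCS, the copper chaperone of both CSD enzymes, which was no list member and was chosen after its values were seen, was at 90.4 and 34.3 FPKM (-1.37). The catalases and ascorbate peroxidases stayed within the fold: CAT3, the most abundant, had a log2 ratio of -0.34, CAT2 of -0.28 and APX1 of 0.05. The 21 thioredoxin genes had 1 member past the fold, TRXH8 (0.573 FPKM in mock, 5.13 FPKM under DPI), while TRXH5, an h-type thioredoxin induced by oxidative stress, was at -0.66.

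Class III peroxidases, secreted enzymes that use or produce H2O2 in the cell wall, held members past the fold on both sides. Of 65 measured, 9 were higher and 9 lower. Over all genes the shares were 0.871% higher and 2.92% lower. The median of the peroxidases was -0.05, which became 0.19 after centring (11 higher and 5 lower). AT1G49570 was at 5.08 FPKM in mock and 54.7 FPKM under DPI (3.19) and AT5G19890 at 1.1 and 15.3 FPKM (2.96). On the lower side, PER4 was at 10.3 and 2.25 FPKM (-1.80), AT2G38390 at 16.1 and 4.85 FPKM (-1.55) and RCI3 at 80.0 and 32.3 FPKM (-1.28).

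No gene of BR synthesis or BR signalling reached the fold. The 12 synthesis and inactivation genes had a median of -0.46 (-0.22 after centring), and the 14 signalling genes a median of -0.22, which became 0.02 after centring. DWF4 and CPD, P450 enzymes that BZR1 represses, had log2 ratios of -0.52 (15.5 FPKM in mock, 10.5 FPKM under DPI) and -0.54 (290.3 and 199 FPKM). BR6OX2, the last synthesis step, was at 53.5 and 27.6 FPKM (-0.93). BZR1 itself was at 35.9 FPKM in mock and 34.7 FPKM under DPI (-0.05), BES1 at 63.0 and 63.8 FPKM (0.02) and BIN2, the kinase that inactivates both, at 234 and 181 FPKM (-0.37). The 13 growth bHLH genes, among them the PRE family, held none past the fold, with a median of -0.21 (0.03 after centring). By sign, 11 were below 0 and 2 above. BEE2 (19.6 FPKM in mock, 9.41 FPKM under DPI, -0.98) and HBI1 (13.2 and 6.61 FPKM, -0.90) lay just within the fold. PRE1 was at 0.607 and 0.387 FPKM. It was 1 of 4 members under 1 FPKM in both groups, which cannot be 2-fold lower after 1 FPKM is added.

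Of 29 auxin-responsive genes measured, 1 was higher and 3 were lower, with a median of -0.34. Over all genes 0.871% were higher and 2.92% lower. The lower members were Aux/IAA repressors: IAA29 (9.01 FPKM in mock, 3.36 FPKM under DPI, -1.2), IAA3 (9.95 and 4.32 FPKM, -1.04) and IAA2 (57.6 and 28.1 FPKM, -1.01). With centring, none of them was past the fold. The higher member was GH3.3, an enzyme that conjugates auxin to amino acids (8.43 and 31.6 FPKM, 1.79). The SAUR genes on the list did not exceed 3.21 FPKM in mock or 2.26 FPKM under DPI, and IAA19, a marker of BR and auxin growth responses, was at 3.71 and 2.73 FPKM.

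Of 19 expansins, of which 4 were higher and 1 lower after centring, EXPA7 was higher (0.807 FPKM in mock, 3.68 FPKM under DPI) and EXPA14 lower (10.8 and 3.49 FPKM), and the family median was 0.39. Of 15 xyloglucan endotransglucosylase/hydrolases on the list only XTH21 was past the fold (2.91 and 0.710 FPKM, -1.19), and with centring none was. XTH7, of the same family but not on the list, was chosen after its values were seen and was at 13.4 FPKM in mock and 75.8 FPKM under DPI (2.41). Arabinogalactan and fasciclin-like proteins had 1 higher and 5 lower members of 49 (2 and 2 after centring), from AGP30 (116 FPKM in mock, 19.6 FPKM under DPI, -2.50) to AGP3 (6.28 and 30.6 FPKM, 2.12).

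Root hair and endodermis markers differed in the sign of their log2 ratios, mostly within the fold. The label gives hypocotyl, but AGP30, a root protein, stood at 116 FPKM and CASP1, a protein of the endodermal barrier, at 50.9 FPKM in mock. All 9 root hair markers had a log2 ratio above 0, from 0.09 to 2.02, and 3 of them were past the fold, EXPA7, PRP3 (16.4 FPKM in mock, 69.3 FPKM under DPI) and LRX1 (3.87 and 14.4 FPKM). All 5 CASP genes were below 0, from -1.84 to -0.81, with CASP5 past the fold (26.8 and 6.74 FPKM). Summed over the 23 markers the level was 358 FPKM in mock and 259 FPKM under DPI, a difference that rested on AGP30, since without it the sums were 242 and 239.8 FPKM. Of the 23 markers 8 were under 1 FPKM in both groups, among them PLT1, PLT2 and WOX5 of the root tip. In such bulk samples fewer cells of a type and less RNA per cell cannot be told apart, and the part of root material in the other results was not tested.

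Seed-stage transcripts went both ways. Storage genes were among the largest differences of the table: CRA1, a 12S globulin, was at 156 FPKM in mock and 9.82 FPKM under DPI (-3.86), CRC, another, at 84.7 and 8.85 FPKM (-3.12), and OLEO2, an oil body protein, at 26.1 and 5.92 FPKM (-1.97). SESA3, a 2S albumin, was at 6.49 and 10.5 FPKM (0.62). ICL, the isocitrate lyase of the glyoxylate cycle that turns seed oil into sugar, was higher, at 250.4 FPKM in mock and 796 FPKM under DPI (1.66), with MLS, the malate synthase, at 22.9 and 38.3 FPKM (0.72). Of the 11 members 4 were lower and 1 higher, and 2 were under 1 FPKM in both groups. By sign, 6 were below 0 and 5 above, and the median was -0.47 (-0.23 after centring).

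Secondary metabolism held members past the fold on the higher side. Of 19 flavonoid genes 3 were higher and none lower (8 and none after centring): CHS, which commits to the pathway, at 32.5 FPKM in mock and 111 FPKM under DPI (1.74), FLS1, of flavonol synthesis, at 2.71 and 8.47 FPKM (1.35), and F3H at 2.72 and 6.51 FPKM (1.01). PAL1 and PAL2, which supply the whole phenylpropanoid pathway, had log2 ratios of -0.87 and -0.69. Of 15 glucosinolate genes 3 were higher (5 after centring), and those 3 were of the methionine-derived branch: BCAT4 (0.817 and 10.2 FPKM, 2.63), MAM1 (0.977 and 4.35 FPKM, 1.44) and CYP83A1 (0.517 and 2.45 FPKM, 1.19). The tryptophan-derived branch did not reach the fold (CYP79B2 -0.27, CYP79B3 0.13, CYP83B1 -0.28). The median of the glucosinolate list was 0.13, and its summed level was 432 FPKM in mock and 355 FPKM under DPI.

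Counts in the defence and stress lists stand beside 0.871% higher and 2.92% lower of all genes. None of 9 jasmonate repressors, 11 heat shock and chaperone genes, 12 ethylene genes, 6 nitrate genes or 17 cytosolic ribosomal protein genes was past the fold. WRKY70, a factor of salicylic acid defence, was at 4.11 FPKM in mock and 0.600 FPKM under DPI (-1.68), with 2 other WRKY genes lower of 63 and none higher. BHLH39, a regulator of iron uptake, was at 6.57 and 0.487 FPKM (-2.35), the only iron gene of 17 past the fold. Among 45 histone genes only the linker histone HIS1-3 was lower (73.3 and 21.0 FPKM, -1.75), and of 80 pectin methylesterase and inhibitor genes 1 was higher and 4 lower. The plot of all lists shows that only the antenna list had a median past 2-fold.

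**Figure D4:**
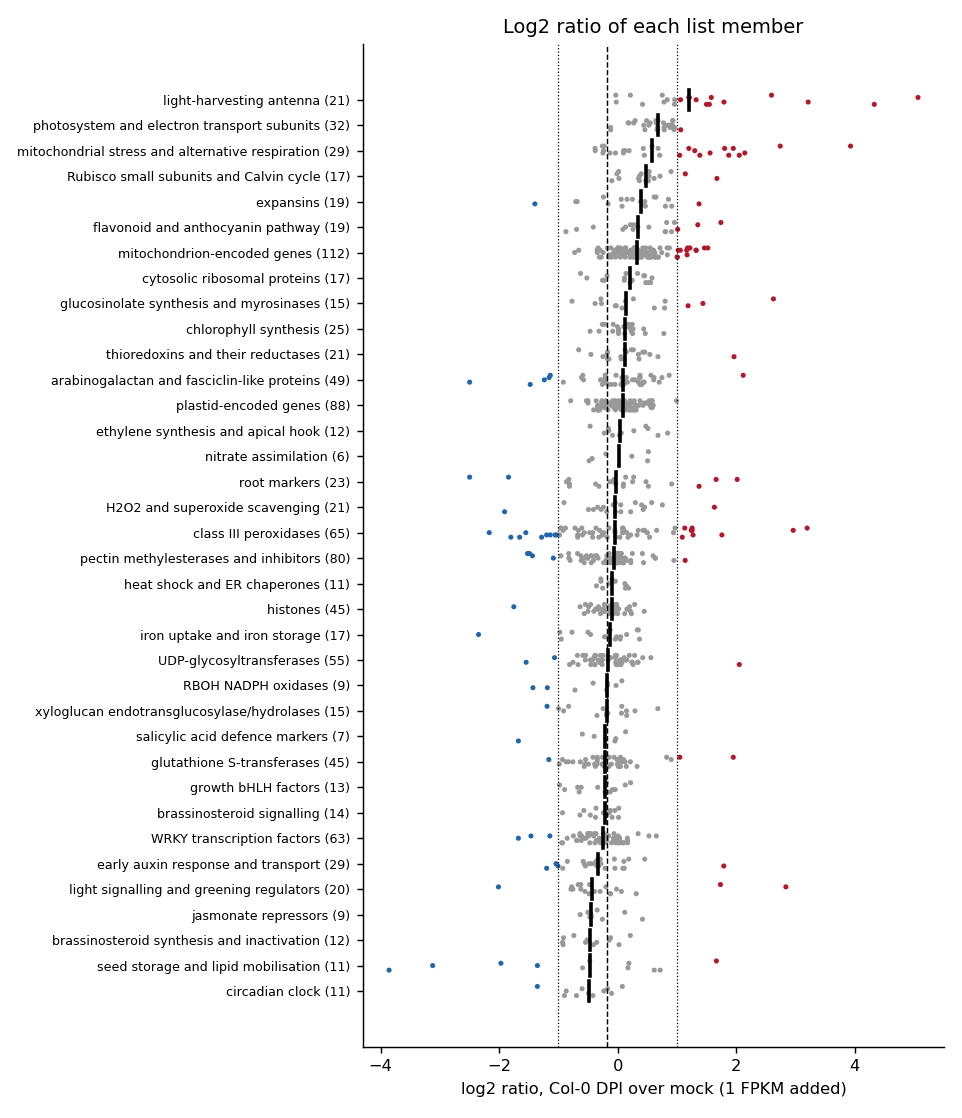
Log2 ratio of Col-0 DPI over mock (horizontal axis, 1 FPKM added) of each member of the 36 lists, with the number of measured members beside each name. Red and blue points are past 2-fold, thick bars are list medians, the dashed line is the median of all genes at -0.17, and the antenna list is at the top with a median of 1.2.

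Outside the lists, several of the largest ratios belonged to wall and transport proteins. EARLI1, a proline-rich protein, was at 1.99 FPKM in mock and 73.2 FPKM under DPI (log2 ratio 4.64). HRGP1 (24.1 and 217 FPKM, 3.12), AT3G54580 (46.0 and 290.5 FPKM, 2.63) and EXT10 (8.29 and 58.2 FPKM, 2.67) encode extensins, rod-like wall proteins whose repeats make reads hard to assign. AT5G13210, AT5G57625 and AT2G41730 complete the 15 largest ratios among genes averaging 10 FPKM or more, with 2.98, 2.49 and 2.47. The lowest ratio was that of AT4G37220, a cold-acclimation family protein, at 55.0 FPKM in mock and 1.99 FPKM under DPI (-4.23). NRT1.5, which loads nitrate into the xylem, was at 115 and 11.2 FPKM (-3.25), GLP9, a germin-like protein, at 23.2 and 1.99 FPKM (-3.02), UMAMIT17, an amino acid transporter, at 39.6 and 4.77 FPKM (-2.81), and ASN1, the asparagine synthetase of starved tissue, at 151 and 27.8 FPKM (-2.40).

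The same treatment in bzr1-1D used libraries separate from these 6, although both genotypes belong to the series. Of the 205 genes higher in Col-0, 202 had values there; 118 (58.4%) were at least 2-fold higher in bzr1-1D under DPI and 9 at least 2-fold lower, with a median log2 ratio of 1.3. Of the 687 lower genes, 684 had values, 424 (62.0%) were at least 2-fold lower and 5 higher, with a median of -1.25. Over all 22918 genes with values, 4.33% were higher and 7.72% lower, and the median was -0.14. Across the 8268 genes that averaged 10 FPKM or more in Col-0, the log2 ratios of the genotypes had a Pearson r of 0.68 and a Spearman rho of 0.69, a description over genes, which are not independent. Whether the size of the response differed between the genotypes was not tested, since no replicate values were at hand.

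By the decimals of its values, the bzr1-1D mock mean is an average of 2 libraries, although the labels give 3. Of the antenna genes 13 of 21 were higher (median 1.27), and of the mitochondrial stress genes 17 of 29 (median 1.57), with AT12CYS at 0.375 FPKM in mock and 58.2 FPKM under DPI and AOX1A at 26.6 and 153 FPKM. The 15 carriers of the mitochondrial dysfunction motif that were at least 2-fold higher in Col-0 were all so there as well. Of all genes higher in Col-0 this held for 58.4%. The chlorophyll synthesis genes, none of which reached the fold in Col-0, had 15 of 25 higher in bzr1-1D (median 1.19). The mock levels of the genotypes differed for members named above. GUN4 was at 34.9 FPKM in bzr1-1D mock and 126 FPKM under DPI, against 143 FPKM in Col-0 mock. PORB was at 615 and 2389 FPKM in bzr1-1D, against 2080 FPKM in Col-0 mock. The seed storage genes that were lower in Col-0 were not lower in bzr1-1D: CRA1 was at 56.6 FPKM in bzr1-1D mock and 81.3 FPKM under DPI, and CRC at 160.2 and 197 FPKM. All 9 root hair markers were below 0 in bzr1-1D, from -1.49 to -0.30. In Col-0 they had all been above 0, with 3 past the fold. LHCB1.4 was at 12.1 FPKM in bzr1-1D mock and 29.2 FPKM under DPI, a log2 ratio of 1.2. HRGP1 had a log2 ratio of 0.23 and AT1G49570 of -0.38. Of the 15 largest ratios in Col-0 among genes averaging 10 FPKM or more, 8 were past the fold in the same direction in bzr1-1D, and of the 15 smallest, 10.

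**Figure D5:**
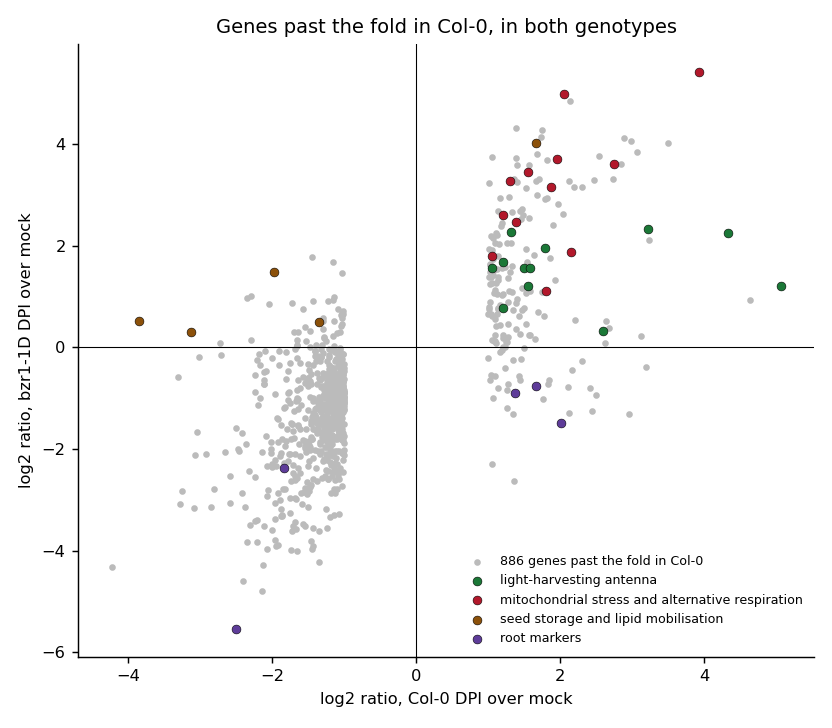
Log2 ratio of DPI over mock in bzr1-1D (vertical axis) against Col-0 (horizontal axis) for the genes past the fold in Col-0 (202 higher, 684 lower) with values in both, with 4 lists coloured. Antenna and mitochondrial stress genes lie at upper right, while 4 seed storage genes left of 0 lie above 0 in bzr1-1D and 3 root hair genes right of 0 lie below it.

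Most auxin and xyloglucan genes, nearly all within the fold in Col-0, were past it in bzr1-1D. Many auxin genes were weakly expressed in Col-0, and 6 of 29 were under 1 FPKM in both groups. Such a gene cannot be 2-fold lower after 1 FPKM is added, so within the fold does not mean unchanged there. Of 29 auxin genes 18 were at least 2-fold lower in bzr1-1D under DPI (median -1.32), and of 15 xyloglucan genes 10 (median -1.32). IAA19 was at 86.4 FPKM in bzr1-1D mock and 21.3 FPKM under DPI, against 3.71 and 2.73 FPKM in Col-0. The mock level of IAA19 in Col-0 was thus below its level in bzr1-1D under DPI; these values come from separate tables.

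H2O2 was added to DPI in bzr1-1D. There, DPI with H2O2 against DPI alone gave a median log2 ratio of 0.65 for 679 of the genes lower under DPI in Col-0, of which 192 were at least 2-fold higher with H2O2 and 1 lower, beside 2.99% higher among all 22819 genes and a median of 0.19. For 204 of the genes higher under DPI in Col-0 the median was -0.04, with 7 higher and 23 lower, beside 0.421% lower among all genes. The antenna list had a median of -0.36 and 3 of 21 members lower, among them LHCB1.3 at 21224 FPKM with DPI and 9110.1 FPKM with DPI and H2O2. The mitochondrial stress list had a median of 0.20, with AT12CYS at 58.2 and 52.1 FPKM and AOX1A at 153 and 155 FPKM. This comparison has the bzr1-1D DPI libraries in common with the previous one, and Col-0 seedlings with DPI and H2O2 were not analysed here.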

How the data were processed

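Total RNA of 14 samples was sequenced as mRNA libraries, and the deposited tables hold the authors' group means, taken here as FPKM from the values since the header names no unit. The submitters' processing notes name HISAT, Bowtie2 and TAIR10. Values of 0.01 FPKM were the lowest listed. The deposited tables also hold the authors' own comparison columns (a log2 ratio, a direction and a NOISeq probability), which were not used. Per-sample values were not analysed here, so no SD, p-value or interval is given, and the depth per sample is unknown.

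Log2 ratios were computed in Python 3.11.15 with pandas 2.3.3 and NumPy 2.4.6 after 1 FPKM was added to each mean, with no filter on low values. A gene was counted past the fold at 2-fold. The fold rule and the motif search were tested on simulated data. The 26 lists by gene name and 10 by name pattern, and the members shown, were chosen with earlier results of these data known. Genes were named as the members of a list with the largest ratios among those averaging 10 FPKM or more (up to 4 in each direction), members that define a list's role, the 15 largest and 15 smallest ratios under the same minimum, and the 10 most abundant genes of each group; other named genes were chosen after their values were seen.

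Promoters were the 250 bases before the gene start in RefSeq TAIR10.1, searched on both strands. All 23311 nuclear genes with coordinates in both lay inside the RefSeq gene of that name. The evening element (AAAATATCT) and the auxin element (TGTCTC) were searched too; motifs were counted independently, and a G-box and a brassinosteroid element can overlap. Alternatives were other pseudocounts, folds, filters on low values and scalings.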

Additional observations from a re-analysis of the deposited data

How the results depend on the processing

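No paired analysis was possible because the files used here hold group means and no values per sample, and for the same reason leaving out each replicate in turn was not run. The count of genes higher under DPI in Col-0, 205 at 2-fold, became 599 at 1.5-fold, 65 at 3-fold, 379 with centring on the median gene, 96 among genes averaging 10 FPKM or more, 605 with 0.1 FPKM added and 94 with 5 FPKM added. For the count of lower genes, 687 at 2-fold, the same settings gave 3227, 161, 342, 286, 2031 and 225. The other settings (genes averaging 1 FPKM or more, nuclear genes only, totals without the 20 most abundant genes) gave 170 to 226 higher and 611 to 804 lower genes. The median log2 ratio in bzr1-1D of the genes past the fold in Col-0 was 2.12 for higher and -1.95 for lower genes at 3-fold, beside 1.3 and -1.25 at 2-fold. The 78 genes followed through these settings were past the fold and averaged 10 FPKM or more. None of the 78 changed the sign of its log2 ratio in a setting that included it. At 3-fold 30 were no longer past the fold, and with 5 FPKM added 13 were not. The number was 8 with centring and 2 without the 20 most abundant genes. With nuclear genes only, which left out organelle-encoded genes, 3 were no longer past the fold and 71 still were. Genes named above with a lower mean, among them AT12CYS, NDB4, RBOHB and RBOHG, were not followed. The medians of 15 of the 36 lists changed sign under a scaling, among them scavenging, NADPH oxidases, brassinosteroid signalling and class III peroxidases. Without replicate values, how much of any difference lies within the spread between samples is unknown.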

Other observations

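Lists in this section were written after the values were seen, so their counts describe the genes chosen and support nothing further. Genes known from darkness and carbon starvation were all below 0: 13 of 20 were at least 2-fold lower in Col-0 under DPI, with a median log2 ratio of -1.67. They included DRM2, a dormancy-associated gene (1851 FPKM in mock, 553 FPKM under DPI, -1.74), DIN10, a raffinose synthase family gene (147 and 42.8 FPKM, -1.76), and enzymes that break down branched-chain amino acids, BCAT2 (77.8 and 16.0 FPKM, -2.21), MCCA (54.4 and 13.3 FPKM, -1.96) and IVD (77.1 and 23.7 FPKM, -1.66). DRM1 (-0.63) and the trehalose phosphate synthase family genes TPS8 to TPS11 (-0.999 to -0.71) were not past the fold. In bzr1-1D 17 of the 20 were at least 2-fold lower, with a median of -2.10.

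Of 14 seed maturation genes measured, 8 were lower and none higher (median -1.48), among them M17 (57.1 FPKM in mock, 4.85 FPKM under DPI, -3.31) and EM1 (16.9 and 3.20 FPKM, -2.09), while ABI3 and ABI5, regulators of that stage, had log2 ratios of -0.18 and -0.77. In bzr1-1D 5 of these 14 were lower, with a median of -0.73.

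Copper-related genes were split: of 17, FSD1 was higher and CSD2, CCS and ZIP2, a metal transporter (50.8 and 22.3 FPKM, -1.15), were lower, with SPL7, the regulator of the copper deficiency response, at -0.63. Of 18 extensin and root hair wall genes 13 were higher and none lower in Col-0 (median 1.65), among them XTH7 (13.4 and 75.8 FPKM, 2.41) and EXT4 (2376 and 5697 FPKM, 1.26). In bzr1-1D 4 of these were higher and 4 lower (median -0.03). All 9 root hair markers were above 0 in Col-0, with 3 past the fold, and below 0 in bzr1-1D. The part of root material in this was not tested.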
